A study of Drosophila melanogaster with 2 samples.

Results

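The genes examined were 41 homeobox genes of Drosophila melanogaster listed outside the Hox and NK groups, out of 13945 protein-coding genes on the chromosome arms. They were taken from a named list: 18 genes of the paired (PRD) class, 5 of which also encode a paired domain, 5 LIM, 3 POU, 3 SIX-class, 7 TALE, 2 CUT and 2 zinc-finger (ZF) homeobox genes, and prospero (PROS). All 41 symbols were found in the Ensembl annotation. The data were chromatin immunoprecipitation sequencing peaks from whole embryos collected 0 to 24 h after laying. The embryos came from transgenic flies that make the protein CG11085, predicted to carry a homeodomain, fused to eGFP, and the antibody was directed against GFP. There was 1 group of 2 biological replicates, and both carry the transgene. Control embryos without the fusion were not analysed here, so background at the same places is not given. The embryos hold all cell types of every embryonic stage, so a peak does not show in which cells, or at which stage, the fusion protein was present.

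Homeodomain proteins bind short DNA words, many of them built on the core TAAT, and classes differ in the residues and extra domains that refine that preference. The PRD class as listed here includes the maternal anterior morphogen Bicoid and the Pax proteins of segmentation and eye development. The class of each gene is that of the list. LIM and POU proteins specify neuron types, SIX-class proteins act in eye and muscle formation, and the TALE proteins Extradenticle and Homothorax are cofactors of Hox proteins. Genes of this kind often sit in long stretches of regulatory DNA with few neighbours.

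A peak's summit is its point of highest signal, and the conservative list, which the authors thresholded over both replicates at a global irreproducible discovery rate (IDR) of 0.01, held 2610 summits on the arms. Of the 41 homeobox genes, only bcd and PHDP had one at most 1 kb from a transcription start site (TSS), and 10 had a summit in the gene or within 5 kb of it: bcd, PHDP, otp, repo, tup, achi, vis, hth, pros and zfh1. The TSS closest to a summit was that of bcd, at 143 bp, and the strongest peak within 5 kb of a member was in otp. Counts are given below beside the share over all protein-coding genes, without tests, since the list was drawn up with earlier results of these data known.

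The sequences around 6 of the summits are shown: the promoter summit of bcd, introns of hth, and summits beyond the ends of zfh1, pros and repo. They are not a representative sample. All 6 hold the core word, and they include every homeobox-gene summit with a longer word marked below. No summit without the core word is shown, and the strongest peak, in otp, is one of these. Further summits that hold the core word are also left out: those of the PHDP promoter and the zfh1 intron, those beyond the end of tup, and another hth intron summit. Each sequence shown is 101 bp centred on the summit, 5′ to 3′ on the forward strand of dm6, read from the RefSeq genome. Capitals mark every TAAT, with the longer TAATTA or TAATTG where it is part of one, and every GGTCACAC, on either strand. On the other strand they read ATTA for TAAT and CAATTA for TAATTG, and GTGTGACC for the last. Overlapping matches run together.
bcd promoter, chr3R:6759559-6759659: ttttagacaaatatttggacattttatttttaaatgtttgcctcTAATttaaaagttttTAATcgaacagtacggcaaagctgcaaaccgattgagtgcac
hth intron, chr3R:10597671-10597771: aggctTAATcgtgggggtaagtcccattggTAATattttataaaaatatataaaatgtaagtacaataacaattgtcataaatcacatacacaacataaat
hth intron, chr3R:10564411-10564511: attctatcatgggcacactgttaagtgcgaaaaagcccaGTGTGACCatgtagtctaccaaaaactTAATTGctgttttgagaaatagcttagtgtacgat
zfh1 downstream, chr3R:30789513-30789613: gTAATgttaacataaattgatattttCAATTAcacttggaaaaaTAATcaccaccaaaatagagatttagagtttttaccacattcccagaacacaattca
pros downstream, chr3R:11409884-11409984: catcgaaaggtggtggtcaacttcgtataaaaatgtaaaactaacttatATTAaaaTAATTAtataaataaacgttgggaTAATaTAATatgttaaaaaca
repo downstream, chr3R:18244302-18244402: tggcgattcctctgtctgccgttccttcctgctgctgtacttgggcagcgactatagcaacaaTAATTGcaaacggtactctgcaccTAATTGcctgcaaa

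The bcd sequence holds 2 TAAT words, and the pros sequence holds 5, counted on both strands. The pros sequence also has 1 TAATTA, a palindrome that counts as a TAAT on each strand. GC content was 22.8% in the pros sequence, the lowest of the homeobox-gene summits, and 30.7% in the bcd sequence. In the genome sequence 62.4% of the pros stretch and 47.5% of the bcd stretch are soft-masked, which the capitals shown do not reflect. The repo sequence has 2 copies of TAATTG, and the weaker of the hth introns shown has 1 copy beside GGTCACAC, a word known from core promoters. Over all 15 distinct summits in or within 5 kb of the homeobox genes, TAAT was present within 50 bp at 11, or 73.3%, and over all 2610 summits at 74.1%. TAATTG was present at 3 of the 15, or 20%, against 11% of all summits, and TAATTA at 1, or 6.67%, against 8.66%. The Bicoid-type word TAATCC, the TALE-type word TGACAG, the GAGA-factor word GAGAG and the promoter word TATCGATA were at 0 of the 15, and at 3.18%, 3.68%, 10.1% and 2.41% of all summits. GGTCACAC was at 1 of the 15 and at 0.996% of all. With 15 summits, 1 summit more or less moves a share by 6.67 percentage points. The 4 summits without TAAT were both at otp, the one in the 3′ UTR of pros and the one shared by achi and vis. The GC content of the 101 bp had a median of 37.6% at the 15 summits and 33.7% at all summits.

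Few of the summits were at homeobox promoters. Only 2 of the 41 genes, or 4.88%, had a conservative summit at most 1 kb from a TSS, where 15.1% of all protein-coding genes did. Within 500 bp the counts were 2 of 41 and 12.9%. At bcd, whose maternal RNA patterns the front of the embryo, the summit was 143 bp upstream of the only annotated TSS. Its deposited signal, on a scale the authors do not state, was 108.8 in replicate 1, 76.4 in replicate 2 and 168 in the pooled reads, which ranked it 776th among the 2610 conservative peaks. PHDP, which encodes a homeodomain protein with little known function, had its summit 489 bp upstream of its TSS. The signal there was 48.3 in replicate 1, 34.6 in replicate 2 and 107 pooled. The bcd peak overlapped a peak in the separate lists of both replicates, and the PHDP peak only in that of replicate 1.

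In wider windows around the TSS the share of homeobox genes stayed below that of all genes. Within 2 kb of a TSS there were 3 of 41 against 18.8%, and within 5 kb 5 of 41 against 29.9%. Within 10 kb there were 9 against 44.3%, within 20 kb 17 against 62.1%, and within 50 kb 29 against 83.3%. For the gene body alone the shares were close: 4 of the 41, otp, hth, pros and zfh1, held a summit, which is 9.76%, against 7.85% of all genes. The median gene length was 15487 bp for the homeobox genes and 2166 bp for all genes, and the part of length was not tested. With 2 kb added on each side the counts were 8 and 24.7%, with 5 kb 10 (24.4%) and 35.4%, and with 10 kb 13 and 48.5%.

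The 15 summits made up 0.575% of the list. The homeobox genes with 5 kb on each side covered 1260 kb in 39 merged stretches, or 0.941% of the arms, so the density was 11.9 summits per Mb there and 19.5 per Mb over the arms. Ranked regions, the long list of candidate regions before thresholding, were 1120 per Mb in these stretches and 1066 per Mb over the arms. Over the 39 stretches combined, candidate regions were therefore not sparser than over the arms, while thresholded summits were. The median per gene, with 5 kb on each side, was 1.21 ranked regions per kb for the homeobox genes and 1.17 for all genes. Single homeobox genes differed from this: toy and exd had 0 ranked regions, and achi had 0.443 per kb.

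The strongest peak was in otp, a gene of hindgut and nervous system development. Its summit lay in a coding exon 13011 bp downstream of the nearer otp TSS and 4643 bp from the TSS of Cib2, the nearest of all, with signals of 244 in replicate 1, 121 in replicate 2 and 364 pooled. The other otp summit lay 3279 bp upstream of the gene with signals of 87.2 and 58.8, and 141 pooled, closer to the TSS of CAH15, at 3011 bp. In both, replicate 1 was the higher.

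hth, whose product carries Extradenticle into the nucleus, held 3 intronic summits, more than any other member, and was the nearest protein-coding gene by TSS for all of them. They lay 16555, 49815 and 53462 bp downstream of the nearer TSS. The first had signals of 127 in replicate 1 and 94.1 in replicate 2, and 220 pooled. The second had 48.8 and 40.7, and 101 pooled, and the third 55.6 and 45.8, and 93.7 pooled. The first was more than 2 times as strong as the others in each replicate, and it alone overlapped a peak in both replicate lists. hth is 132008 bp long, the longest of the 41, and no other protein-coding gene starts within 20 kb of its 5′-most TSS.

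zfh1, a zinc-finger homeobox gene of mesoderm and motor neurons, had a summit in an intron, 1515 bp upstream of its downstream TSS. The signals were 123 in replicate 1, 77.0 in replicate 2 and 186 pooled. A weaker summit, at 66.0, 41.8 and 98.8, lay beyond the 3′ end, 6305 bp from that TSS. Both were nearer to zfh1 than to any other protein-coding TSS.

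**Figure D1:**
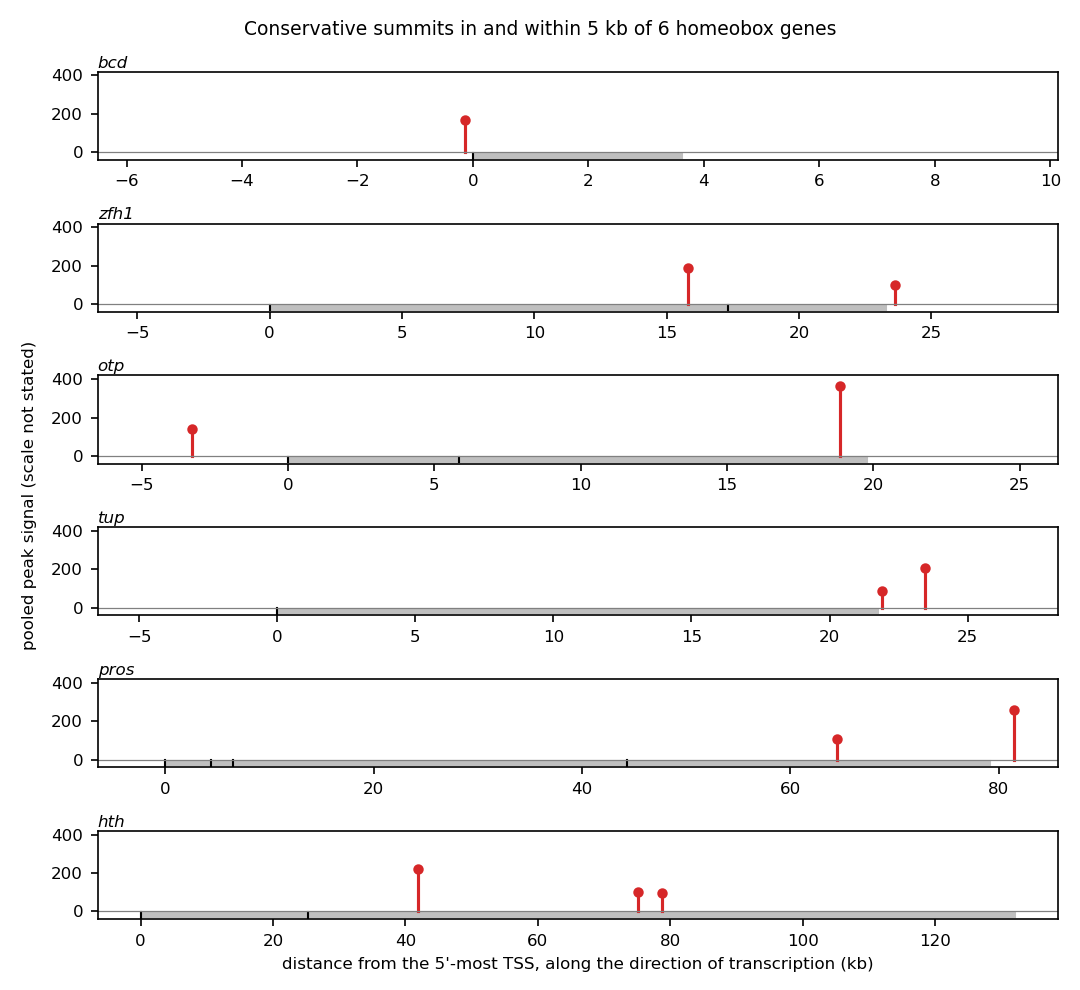
Conservative summits (red, height is the pooled signal, scale not stated) along 6 homeobox genes, by distance in kb from the 5′-most TSS in the direction of transcription. Grey bars are gene bodies and black ticks TSSs; the bcd summit alone is just upstream of a TSS, the hth summits are in introns, and those of tup and 1 of pros lie past the gene end.

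Several other summits near the homeobox genes were at promoters of neighbours. At pros, whose product is parted into the smaller daughter cell when neuroblasts divide, the stronger summit lay past the 3′ end of the gene, 59 bp upstream of a TSS of mgr, a prefoldin subunit gene, and within 1 kb of Irbp. Its signals were 180 in replicate 1, 90.4 in replicate 2 and 259 pooled. A weaker pros summit in its 3′ UTR, 20209 bp downstream of the nearest pros TSS, had 56.5, 44.4 and 105. The LIM gene tup, needed in heart, amnioserosa and motor neurons, had no summit in its body but had 2 beyond its 3′ end. They lay 133 and 117 bp upstream of TSSs of CG10602, the latter also of mRpL13, a mitochondrial ribosomal protein gene. Their signals were 133 and 85.4 (209 pooled) and 52.1 and 29.5 (84.8 pooled). These 3 summits are those within 500 bp of a TSS of a gene that is not a member. When summits at another gene's promoter were set aside, 9 of the 41 genes (22%) and 15.5% of all genes had a summit in the gene or within 5 kb, and tup was the gene that dropped out. This removal was chosen after seeing the data. Of the 9 genes, achi and vis stayed only through a shared summit 618 bp from a TSS of fdl, outside the 500 bp limit. The median number of other genes starting within 20 kb was 1 for the homeobox genes and 7 for all genes. All genes thus have more neighbouring promoters to set aside, and the part of this was not tested.

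The remaining summits were weak. The glial gene repo had a summit 8160 bp downstream of its TSS, inside 14-3-3epsilon, with 55.9 in replicate 1, 26.4 in replicate 2 and 83.0 pooled. The neighbouring TALE genes achi and vis, which act in spermatogenesis, shared a summit inside fdl, with signals of 43.3, 35.4 and 78.7. It lay 3900 bp from the TSS of vis and 618 bp from a TSS of fdl. The summit of repo and that of achi and vis were each outside both replicate lists.

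Assigned by the nearest protein-coding TSS at any distance, 5 of the 41 genes (12.2%) received a summit, and 14.7% of all genes did. These were bcd, PHDP, zfh1, hth and vvl, with 9 summits between them. Which share was the higher differed between lists, as given in the last section. vvl, a POU gene of tracheal and neural development, had 2 summits far outside the 5 kb window, 26264 and 33867 bp downstream of its TSS. Signals at the nearer were 77.9 in replicate 1, 55.7 in replicate 2 and 123 pooled, and at the farther 81.2, 57.3 and 135. No other protein-coding gene starts within 20 kb of the vvl TSS.

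Replicate 1 gave the higher signal at all 15 summits, and did so at 2380 of the 2610 in the list. The ratio of replicate 1 to replicate 2 ran from 1.20 at an hth summit to 2.11 at repo, with a median of 1.48, and the median over the list was 1.51. The pooled signals of the 15 ran from 78.7 to 364 with a median of 107. The median over the list was 124, with quartiles at 91.8 and 184, and 7 of the 15 were above that median. Of the 15, 8 overlapped a peak of the replicate 1 list, 9 one of the replicate 2 list, 7 one of both and 5 one of neither. Over the whole list 1318 of 2610 overlapped both.

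**Figure D2:**
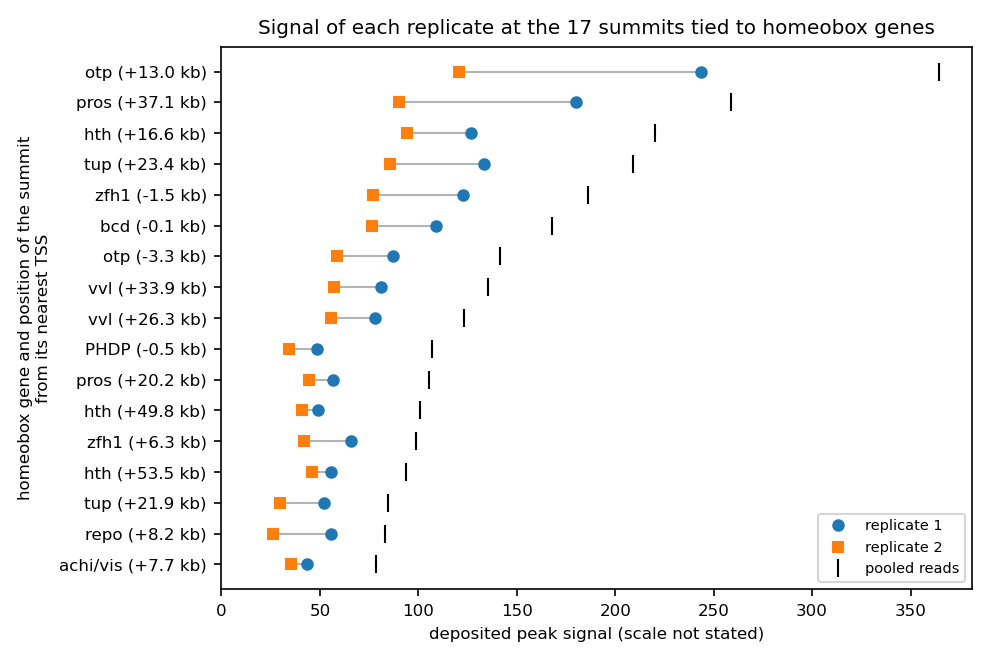
Deposited signal (scale not stated) of replicate 1 (circles), replicate 2 (squares) and the pooled reads (ticks) at the 15 summits in or within 5 kb of homeobox genes and the 2 assigned to vvl, labelled by gene and by kb from its nearest TSS. Replicate 1 is above replicate 2 in every row.

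By class, summits in the gene or within 5 kb were found for 4 of 13 PRD genes without a paired domain, 3 of 7 TALE genes, 1 of 5 LIM genes, 1 of 2 ZF genes and pros. None was found for the 5 PRD genes with a paired domain, the 3 POU, the 3 SIX-class or the 2 CUT genes. Over all protein-coding genes the share was 35.4%. Taken as a whole, the PRD class had 4 of 18 and the other classes 6 of 23, with medians of the nearest distance of 22842.5 and 25967 bp. Both promoter summits were in the PRD class as listed, which counts bcd. The groups hold 1 to 23 genes, and no difference between classes was tested.

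The distance to the nearest conservative summit spread over more than 3 orders of magnitude. Its median was 25967 bp over the 41 genes, with quartiles at 13646 and 58072 bp, and 12571 bp over all genes, with quartiles at 3626 and 33637 bp. Measured to the gene body, the medians were 19360 and 10660 bp. The nearest were bcd (143 bp), PHDP (489 bp), zfh1 (1515 bp), otp (3279 bp) and vis (3900 bp). The farthest were zfh2, at 525472 bp, onecut, at 419633 bp, the wing selector gene ap, at 349192 bp, the eye selector gene ey, at 319853 bp, and mirr of the Iroquois complex, at 121099 bp. In the gene or within 5 kb, ranked regions were 0.204 per kb at zfh2, 0.105 at onecut, 0.287 at ap and 0.627 at ey. At mirr they were 1.39 per kb, and the median over all genes was 1.17. Chromosome 4 held 1 conservative summit in all, at the promoter of the guidance receptor gene PlexA, and 4 of the 41 genes: ey, toy, onecut and zfh2. Without them the median was 21896 bp over 37 genes and 12455 bp over all.

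**Figure D3:**
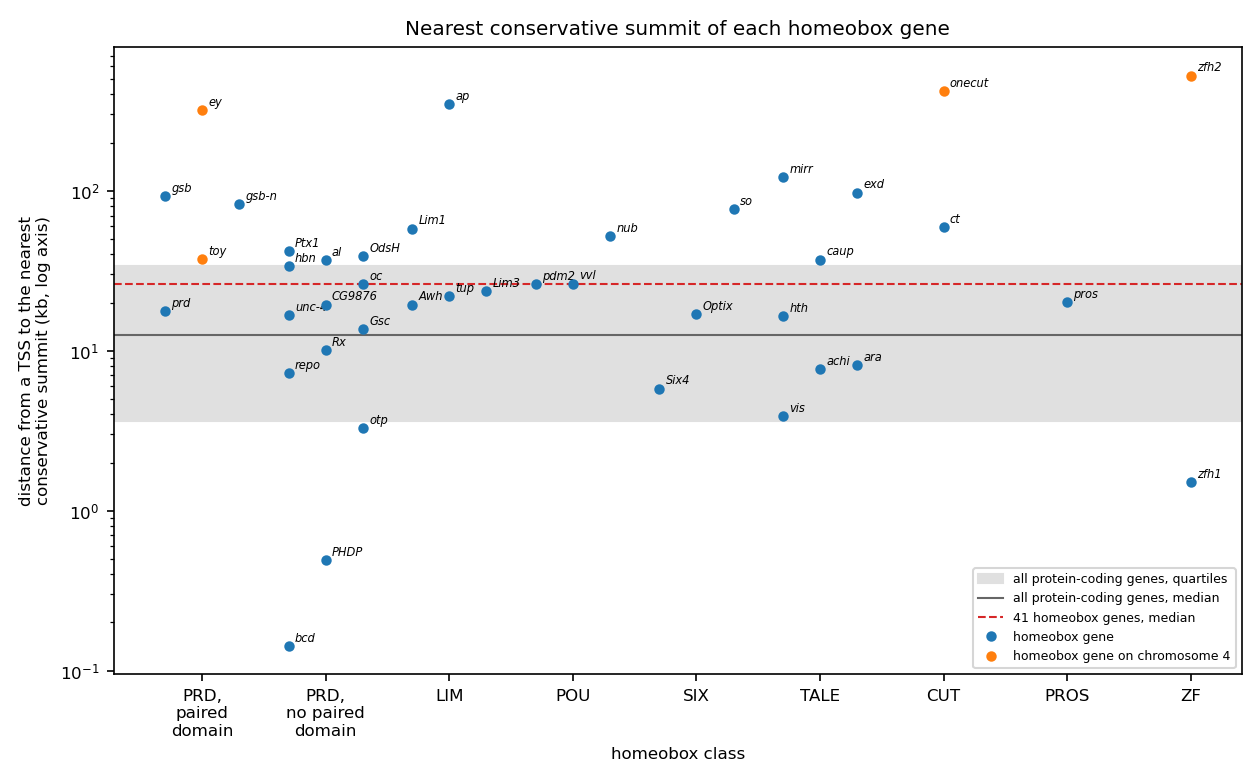
Distance in kb (log axis) from each homeobox gene's TSS to the nearest conservative summit, by class, with the median (grey line) and quartiles (band) of all 13945 protein-coding genes and the median of the 41 (dashed). bcd and PHDP lie lowest, and 3 of the 4 genes on chromosome 4 (orange) are among the 5 farthest.

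For 22 of the 41 genes (53.7%) the nearest summit was at another gene's promoter, within 500 bp of its TSS, and the same held for 54.4% of all genes. PlexA was that neighbour for 4 genes, sowah for 3 and RpL19, a ribosomal protein gene, for the segment polarity pair gsb and gsb-n. For the pair-rule gene prd it was ThrRS and for the motor neuron gene Lim3 AsnRS, both tRNA synthetase genes, and for hbn the proteasome gene Prosalpha3. For Six4, a gene of muscle and gonad development, it was a peak at tzn, 5799 bp away, with signals of 259 in replicate 1, 177 in replicate 2 and 424 pooled.

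Of 9 chosen pairs of neighbouring members, some sharing a gene, 7 had no summit anywhere from the first to the last base of the pair. These were ara and caup (41.1 kb), caup and mirr (100.6 kb), nub and pdm2 (98.7 kb), gsb and gsb-n (24.3 kb), achi and vis (7.17 kb), hbn and Rx (44.2 kb), and ey and toy (310.2 kb, on chromosome 4). The spans from otp to Rx (53.4 kb) and from hbn to otp (77.3 kb) held 2 summits each, in both cases those of otp. The arms as a whole held 19.5 summits per Mb, and no rate for spans of these lengths was computed. ara, caup and mirr form the Iroquois complex, and nub and pdm2 are neighbouring POU genes that act as temporal identity factors in neuroblasts. The nearest summit to all of the Iroquois genes was the same, at the promoter of sowah, with signals of 48.6, 30.8 and 73.4 pooled.

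By arm, genes with a summit in or within 5 kb were 5 of 6 on 3R (all but Ptx1), 4 of 12 on 2R, 1 of 7 on 2L, 0 of 6 each on X and 3L, and 0 of 4 on chromosome 4. Over all protein-coding genes the share was 37.7% on 3R, 34.7% on 2R, 35.1% on 2L, 34.2% on X, 35.3% on 3L and 5% on chromosome 4. The difference between arms was not tested.

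The homeobox genes are long and isolated. Their median length was 15487 bp, from 1305 to 132008 bp, against 2166 bp over all genes. The median number of other protein-coding genes starting within 20 kb of the 5′-most TSS was 1, against 7, and 15 of the 41 (36.6%) had none, against 3.25% of all genes. Among all genes, summits in or within 5 kb became more frequent with length and with neighbours. Of the 30 homeobox genes in the longest quartile by length, 5 had one, where all genes of that quartile gave 45.8%, and of the 10 in the next quartile 4 did, where all gave 38.4%. Among genes with no neighbour, 3 of 15 homeobox genes had one and 20.1% of all 453 such genes. With 1 to 2 neighbours the values were 2 of 13 and 23.8%, with 3 to 6, 1 of 2 and 32.1%, and with 7 or more, 4 of 11 and 40.4%. Within the longest quartile, genes with no neighbour gave 3 of 14 homeobox genes and 28.9% of all. With 1 to 2 neighbours that quartile gave 2 of 12 and 36.5%, with 3 to 6, 0 of 1 and 47.4%, and with 7 or more, 0 of 3 and 51.7%. For the nearest distance, the homeobox genes without a neighbour had a median of 36814 bp and all such genes 47447 bp. With 1 to 2 neighbours the homeobox median was 37557 bp, against 29848 bp, and with 7 or more 17732 bp, against 8930.5 bp. With 3 to 6 it was 6894.5 bp, over only 2 homeobox genes, against 15909 bp. Gene density thus moves with the result, and its part in it was not tested.

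**Figure D4:**
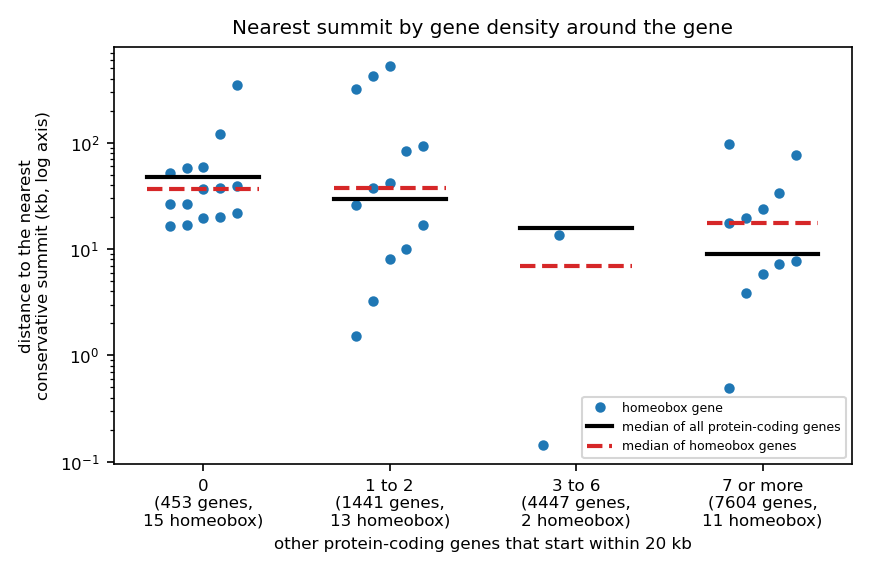
Distance in kb (log axis) to the nearest conservative summit for each homeobox gene (points), by the number of other protein-coding genes that start within 20 kb, with medians of the homeobox genes (dashed) and of all genes (solid). The homeobox median is below that of all genes with 0 and with 3 to 6 neighbours (only 2 homeobox genes), and above it with 1 to 2 and with 7 or more.

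The ranked regions give a value for most promoters, including those with no thresholded peak. The strongest ranked region within 1 kb of a TSS had a median pooled signal of 39.5 over the 41 genes and 39.6 over all genes, with genes that had no region counted at 0. In replicate 1 the medians were 28.4 and 27.6, and in replicate 2 14.6 and 15.6. The medians lay close together in each set of reads, and 20 of the 41 were above the pooled median of all genes. After bcd and PHDP, the eye gene so came next, with 45.4 in replicate 1, 25.8 in replicate 2 and 64.4 pooled, followed by Lim1 at 46.3, 20.3 and 62.7 and pdm2 at 30.7, 19.1 and 56.7. The weakest were achi, toy, caup, tup, onecut, zfh2 and exd, for which no region was listed, so that 17.1% of the homeobox genes and 14.1% of all genes had none. Genes with a conservative summit within 1 kb had a median of 146, above any homeobox promoter except that of bcd. Those genes were picked by having a thresholded peak there, and all homeobox genes but bcd and PHDP lack one. The gap is therefore tied to the threshold and is not a separate result.

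**Figure D5:**
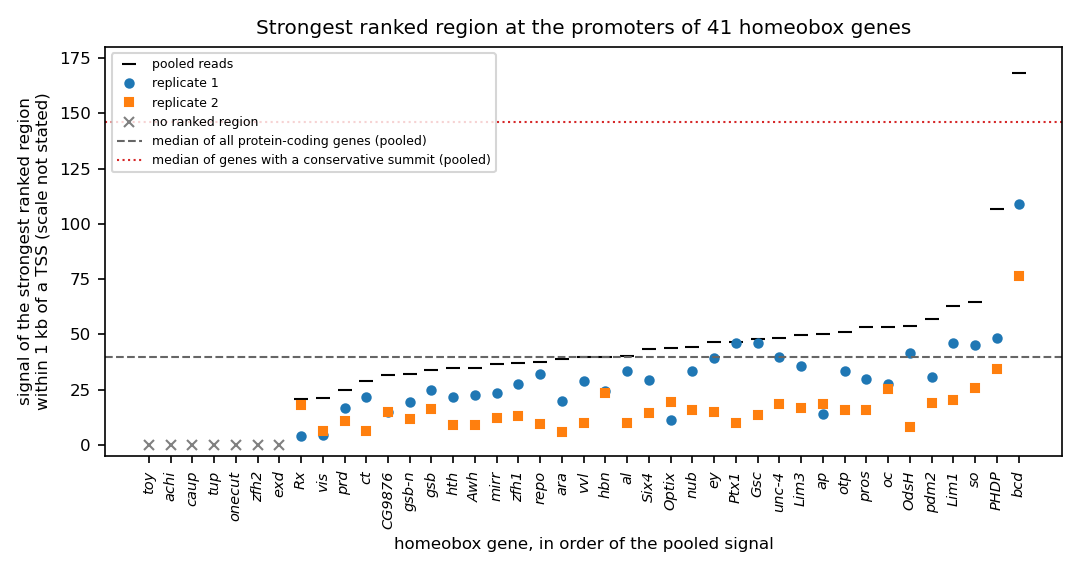
Signal (scale not stated) of the strongest ranked region within 1 kb of a TSS of each of the 41 homeobox genes, in replicate 1 (circles), replicate 2 (squares) and pooled reads (bars), with the pooled medians of all genes (39.6, dashed) and of genes with a conservative summit there (146, dotted). Crosses are the 7 genes with no region; only the bcd bar is above the dotted line.

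Other lists changed the outcome for a few genes. In the larger IDR list, the 1 kb window again held a summit for 2 of the 41 genes, against 17.3% of all, and 13 had one in the gene or within 5 kb, against 39.6%. The 3 that joined were CG9876, with a summit in a coding exon at 72.3, the sensory organ gene ct, with an intronic one at 82.0, and zfh2, with one 3929 bp upstream at 81.4. Replicate 1 was the higher at all 3, with 55.6 against 18.96 in replicate 2 at CG9876, 64.8 against 13.3 at ct and 73.8 against 8.97 at zfh2. In the list of replicate 1 the counts were 2 (13.3% of all genes) and 8 (31%), with zfh2 added and repo, achi and vis absent. In the list of replicate 2 they were 1 (11.2%) and 7 (26.9%). There PHDP, repo, achi and vis were absent, and Lim1, which acts in leg and antenna formation, was added by an intronic summit with 64.1 in replicate 2 and 21.0 in replicate 1. Across the 4 lists, 6 genes always had a summit in the gene or within 5 kb: bcd, otp, tup, hth, pros and zfh1.

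Further sets of genes were counted in the same way. Of 13 other homeobox genes of the same classes, 0 had a summit within 1 kb and 2 (15.4%) had one in the gene or within 5 kb. Of 42 Hox, ANTP-class and NK-type homeobox genes, the group to which CG11085 belongs, 6 (14.3%) and 12 (28.6%) did, neither above the share over all genes. In the pooled reads the strongest of these promoters was that of the limb gene Dll, with 333 in replicate 1, 38.5 in replicate 2 and 379 pooled. It was followed by NK7.1 at 141, 78.9 and 232, the heart gene tin at 87.0, 84.2 and 169, and the eye gene ro at 53.9, 48.8 and 99.5. Dll exceeded every promoter of the 41 genes in replicate 1 but not that of bcd in replicate 2. In replicate 2 Dll was also below NK7.1, tin and ro, so its place rests on replicate 1. Of 16 head and segmentation genes without a homeobox 0 and 2 (12.5%) had such summits, and of 6 retinal determination genes 0 and 1 (16.7%). Of 8 partners and cargo adaptors of LIM and Prospero proteins 2 (25%) and 6 (75%) did. The 2 were brat, with 170 in replicate 1, 145 in replicate 2 and 325 pooled, and stau, with 86.1, 35.8 and 119, both products that travel with Prospero at neuroblast division. These partners had a median of 8.5 neighbours within 20 kb, against 1 for the 41 homeobox genes, and the part of gene density in the counts was not tested.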

How the data were processed

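Anti-GFP chromatin immunoprecipitation of 2 biological replicates of CG11085-eGFP embryos gave the peak files, in dm6 coordinates per the labels. Chromatin had been sonicated to 200 to 800 bp. The authors thresholded peaks by IDR over both replicates (a conservative and a larger list) and within each replicate, against a control, according to the deposited lists of files. The aligner and the caller were not given in the sources used here. Peak signal is printed as the authors deposited it, on a scale not stated. The −log10 of the global IDR is also as deposited. Read depth is unknown, so no counting intervals are given. The replicate signals come from the ranked file in which 83121 regions coincide exactly with regions of replicate 1 and 61695 with those of replicate 2, and 0 in the crossed order.

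Summits were compared with TSSs and gene bodies of Ensembl release 115, whose chromosome lengths match the RefSeq sequence used, with Python 3.11.15, numpy 2.4.6 and pandas 2.3.3. The assignment was tested on simulated data. No test was made between groups, since there is 1 group. Overlap with a replicate list needed at least 1 bp. The members and all lists were chosen with earlier results of these data known. The genes named were all members with a summit in or within 5 kb or by nearest TSS, the 5 strongest and weakest promoters, the 5 nearest and farthest, those that changed between lists, and up to 4 bound genes of each other list. The neighbours of prd, Lim3, hbn, gsb, gsb-n and Six4 and the gene pairs were chosen after their values were seen. Alternatives were the larger list, each replicate alone, a global IDR of 0.001, other windows and TSS choices, the nearest TSS of any biotype, the strongest of overlapping peaks and, chosen after seeing the data, removal of chromosome 4, of peaks sharing a replicate region and of summits at other promoters.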

Additional observations from a re-analysis of the deposited data

How the results depend on the processing

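The count of members by nearest TSS stayed within 1.5 times under all 7 alternatives, and was 4 at a global IDR of 0.001. That stricter limit, which keeps 1190 summits, gave 1 gene within 1 kb of a TSS (8.53% of all genes), 6 in the gene or within 5 kb (20.8%), 7 summits and a median distance of 43275 bp (27902 bp over all genes). Leaving out a replicate, by using the other's own list, gave 1 to 2 genes within 1 kb, 9 to 10 summits and median distances of 27648 to 36800 bp. Median promoter signals of a single replicate were 14.6 to 28.4, since each replicate's signals are lower than pooled ones. Those signals were read at the ranked regions that compare both replicates, so neither replicate was left out in defining the regions. Counting summits in the gene body alone gave 4 genes. Distance measured to the gene body had a median of 19360 bp, and distance to the 5′-most TSS alone 33920 bp, since these count more and fewer positions than all TSSs do. In each of these alternatives with a median distance, it was longer for the homeobox genes than for all genes. No paired analysis was possible because the result comes from no test and there is 1 group. Precision is limited by 2 replicates, a signal scale that is not stated, unknown depth and the absence here of a control library. A summit near a gene does not show that the gene is regulated.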
